A study of Homo sapiens with 19 samples.

Results

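Promoters of long non-coding RNA (lncRNA) genes that stand alone, away from any protein-coding start site, were scored in 4 human leukaemia cell lines for H3K27ac, the acetylated form of lysine 27 on histone H3. A promoter was the transcription start site (TSS) at the 5′ end of a GENCODE gene record in hg38 on chromosomes 1 to 22 and X. It was taken as stand-alone when the gene was typed lncRNA and the TSS lay more than 5 kb from every TSS of a protein-coding transcript. Of 62062 annotated gene promoters 18756 belonged to lncRNA genes, and 13459 of these met the rule. The other 5297 lncRNA promoters lay within 5 kb of a coding TSS and served, with 19970 promoters of protein-coding genes, as comparison classes. A promoter is called marked in a line when a region of that line's H3K27ac list covered the TSS or ended within 500 bp of it.

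LncRNAs are transcripts that are not translated, made mostly by RNA polymerase II from promoters of their own. Many lie beside a coding gene and share its promoter region, so that acetylation there cannot be credited to either gene, and this is why a distance was required. Some stand-alone lncRNA genes carry small RNAs inside them, either small nucleolar RNAs (snoRNAs), which guide the modification of ribosomal RNA, or microRNAs, which repress messenger RNAs through a short seed sequence. Others act as long RNAs in nuclear bodies or on chromatin, and many annotated ones begin inside enhancers. H3K27ac marks active promoters and active enhancers alike, and a region at a TSS is not a measurement of transcription.

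The data were 1 H3K27ac ChIP-seq library for each line. HL-60, Molm13 and OCI-AML3 come from acute myeloid leukaemia (AML), and K562 comes from chronic myelogenous leukaemia. HL-60 and Molm13 had received no treatment. OCI-AML3 and K562 carried a lentiviral dCas9-KRAB-mCherry vector, a catalytically dead Cas9 fused to a repressor domain, and a second lentivirus with a BFP reporter and an empty sgRNA slot, and they were sorted for both reporters 48 hours after transduction. Line and vector therefore cannot be told apart. A list of dCas9 binding in K562 cells with 4 sgRNAs against the LTR2B repeat family was also used, and 14 of the 19 samples were not analysed here. With 1 library per line there was no replicate check, so no test between lines was made. Intervals given for shares are Wilson 95% intervals and cover counting error over promoters only, and the read depth of the libraries was unknown.

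The lists held 20814 regions (HL-60), 35206 (Molm13), 37606 (OCI-AML3) and 37484 (K562), so that HL-60 had the shortest list. Fixed sets of marker genes were scored at any annotated TSS to check the lines against their labels. Of 10 erythroid and megakaryocytic markers, all 10 were marked in K562 and 2 to 3 in the AML lines, where GATA1, KLF1 and the globin genes HBG1, HBG2 and HBE1 had no region. Of 13 myeloid markers, 8 (HL-60), 11 (Molm13), 12 (OCI-AML3) and 6 (K562) were marked. None of 5 T cell markers was marked in any line. B cell markers (2 to 3 of 5) and epithelial and stromal markers (1 of 6 in the AML lines, 4 of 6 in K562) were marked in part.

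The sequences that the results below turn on are the mature microRNAs of the host genes with the clearest patterns. The let-7 and miR-181 sequences are shown because hosts with the same seed were marked in different lines, and the others because their hosts are described by line. The sequences are from RefSeq (GRCh38.p14), and capitals mark the seed, bases 2 to 8.

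hsa-let-7a-5p: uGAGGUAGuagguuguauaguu
hsa-let-7d-5p: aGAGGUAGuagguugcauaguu
hsa-let-7f-5p: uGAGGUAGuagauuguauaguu
hsa-let-7i-5p: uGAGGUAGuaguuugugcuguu
hsa-let-7b-5p: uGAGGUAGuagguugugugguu
hsa-let-7c-5p: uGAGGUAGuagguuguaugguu
hsa-miR-181a-5p: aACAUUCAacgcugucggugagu
hsa-miR-181b-5p: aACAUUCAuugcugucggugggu
hsa-miR-221-3p: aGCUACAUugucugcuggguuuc
hsa-miR-222-3p: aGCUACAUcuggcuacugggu
hsa-miR-223-3p: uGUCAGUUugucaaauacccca
hsa-miR-155-5p: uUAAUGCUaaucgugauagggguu
hsa-miR-17-5p: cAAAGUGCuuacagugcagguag
hsa-miR-20a-5p: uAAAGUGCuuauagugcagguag

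The let-7 microRNAs share the seed GAGGUAG. The miR-181 pair shares ACAUUCA, the miR-221 and miR-222 pair shares GCUACAU, and miR-17-5p and miR-20a-5p share AAAGUGC. The host of miR-223-3p starts at chrX:66015414 (plus strand), and the mature microRNA lies downstream at chrX:66018937-66018958. Of the 69 stand-alone microRNA hosts, 60 held a listed RefSeq microRNA on their own strand, with 182 mature microRNA entries in all. A microRNA carried by several hosts, such as let-7a-5p, is counted once per host. Mature microRNAs of hosts on chromosome 8 were not listed, and those hosts are not among the 60.

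Promoter windows of 300 bases, from 250 before to 50 after the TSS, are shown for 4 lncRNA genes with different patterns across the lines. They are read 5′ to 3′ on the gene's strand from hg38, and capitals mark matches to any of 9 short motifs that were searched on both strands. MIR223HG (chrX:66015164-66015463, plus strand) and SNHG5 (chr6:85678883-85679182, minus strand) were marked in all 4 lines. MIR181A1HG (chr1:198937422-198937721, minus strand) was marked in the 3 AML lines, and MIRLET7BHG (chr22:46053619-46053918, plus strand) in Molm13 and OCI-AML3.

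MIR223HG: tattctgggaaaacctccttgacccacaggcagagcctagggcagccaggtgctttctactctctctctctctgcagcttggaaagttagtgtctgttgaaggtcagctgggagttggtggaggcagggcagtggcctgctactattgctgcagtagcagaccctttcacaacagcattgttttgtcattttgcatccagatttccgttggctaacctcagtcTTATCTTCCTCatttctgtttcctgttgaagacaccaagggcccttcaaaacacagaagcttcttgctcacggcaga
SNHG5: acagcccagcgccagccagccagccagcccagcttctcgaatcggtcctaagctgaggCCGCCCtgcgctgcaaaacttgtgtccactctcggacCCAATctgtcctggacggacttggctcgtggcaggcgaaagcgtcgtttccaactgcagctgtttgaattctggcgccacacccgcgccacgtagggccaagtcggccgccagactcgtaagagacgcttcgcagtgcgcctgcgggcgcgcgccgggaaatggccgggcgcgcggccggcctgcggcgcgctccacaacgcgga
MIR181A1HG: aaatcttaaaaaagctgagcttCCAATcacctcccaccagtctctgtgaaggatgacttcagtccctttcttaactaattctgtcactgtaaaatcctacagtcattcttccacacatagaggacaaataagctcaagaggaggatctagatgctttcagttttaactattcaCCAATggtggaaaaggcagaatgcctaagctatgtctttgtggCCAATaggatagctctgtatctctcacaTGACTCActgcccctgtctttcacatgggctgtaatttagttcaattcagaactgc
MIRLET7BHG: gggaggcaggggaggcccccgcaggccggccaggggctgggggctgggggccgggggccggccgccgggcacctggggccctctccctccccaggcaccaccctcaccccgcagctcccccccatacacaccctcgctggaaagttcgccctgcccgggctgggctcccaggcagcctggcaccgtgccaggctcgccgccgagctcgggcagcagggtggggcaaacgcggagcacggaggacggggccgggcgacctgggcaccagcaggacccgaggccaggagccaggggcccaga

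The SNHG5 window was rich in CpG, with 36 CpG dinucleotides and a GC content of 67.3%. The other promoter marked in all 4 lines was of a different kind, since the MIR223HG window held 2 CpGs at a GC content of 49.7%. In it a GATA match and a PU.1 match, both on the opposite strand, overlapped at positions -27 and -23 from the TSS. GATA factors and PU.1 are regulators of erythroid and myeloid genes, and these letters are a description of the window and not a measured site. MIR181A1HG held no CpG at all, 3 CCAAT matches and 1 AP-1 match (TGACTCA) at -6. MIRLET7BHG held none of the motifs.

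Few stand-alone lncRNA promoters were acetylated. The HL-60 list marked 680 of 13459 (5.05%, interval 4.70 to 5.44), the Molm13 list 1191 (8.85%, 8.38 to 9.34), the OCI-AML3 list 1326 (9.85%, 9.36 to 10.4) and the K562 list 1370 (10.2%, 9.68 to 10.7). Of all annotated promoters 17.9%, 23.2%, 25.2% and 24.9% were marked in the same lines, so that the stand-alone lncRNA share lay below the share over all genes in each line. In total 2223 (16.5%, 15.9 to 17.2) were marked in at least 1 line, against 31.1% of all promoters, and 11236 (83.5%) were marked in none. The 23336 promoters of genes of other types were marked less often, in 3.33% (HL-60), 5.83% (Molm13), 6.45% (OCI-AML3) and 6.68% (K562). For them the share in at least 1 line was 10.7%. Protein-coding promoters were marked in 38.4% (HL-60), 47.2% (Molm13), 51.3% (OCI-AML3) and 49.9% (K562) of cases. LncRNA promoters near a coding TSS came close to these values, with 37.2%, 45.5%, 49.0% and 48.4%. The intervals of the stand-alone class did not overlap those of either comparison class in any line. HL-60 had the lowest share in every class, and it also had the shortest list. With each list cut to its 20814 regions of lowest p-value, HL-60 was still lowest at 5.05%, against 6.94% (Molm13), 7.64% (OCI-AML3) and 8.20% (K562). With regions of q-value below 0.001 alone, the HL-60 share was 3.17%, and OCI-AML3 (7.73%) and not K562 (7.12%) was highest.

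**Figure D1:**
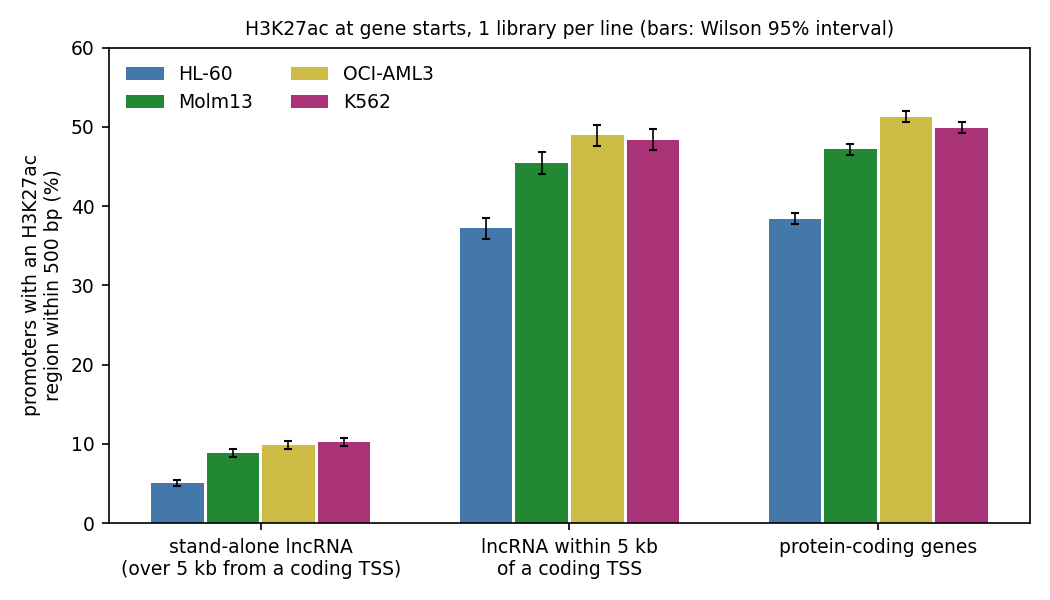
Share of promoters (%, y axis from 0) with an H3K27ac region within 500 bp in each of 4 lines (colours), for stand-alone lncRNA genes, lncRNA genes within 5 kb of a coding TSS and protein-coding genes. Bars are 1 library each and the thin lines are Wilson 95% intervals over promoters. The stand-alone class lies between 5.05% and 10.2%, and both other classes lie between 37.2% and 51.3%.

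The 5 kb limit itself was not where the acetylation changed. Among all lncRNA promoters, 71.5% (69.9 to 72.9) of those within 1 kb of a coding TSS were marked in at least 1 line. The share was 41.3% between 1 and 2 kb, 26.9% between 2 and 3 kb and 25.7% between 3 and 4 kb. Just inside the excluded zone, between 4 and 5 kb, 70 of 352 were marked (19.9%, 16.1 to 24.4). Just outside it, between 5 and 6 kb, 77 of 331 were marked (23.3%, upper bound 28.1%), and these intervals overlap. CpG-rich windows made up 69.7% of the lncRNA promoters within 1 kb, 9.94% of those at 4 to 5 kb and 9.97% of those at 5 to 6 kb.

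Beyond the limit the share marked declined with distance. It was 22.8% (20.7 to 25.1) for the 1384 promoters at 5 to 10 kb, 21.8% at 10 to 20 kb, 19.2% at 20 to 50 kb, 16.7% at 50 to 100 kb, 13.7% at 100 to 200 kb and 8.13% (6.96 to 9.49) at 200 to 500 kb. The 1021 promoters more than 500 kb away were marked in 9.70% of cases (8.03 to 11.7). In that most remote bin K562 marked 6.56% and the AML lines 2.06% to 3.33%, and 53 of its 99 marked promoters were marked in K562 alone. Promoters that began outside coding genes were marked more often (17.5%, 16.8 to 18.3) than those that began inside a coding gene on the opposite strand (14.4%, 13.1 to 15.7) or on the same strand (13.4%, 11.6 to 15.5). Neighbouring promoters can lie in the same region, so promoters are not independent of each other.

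Marked stand-alone lncRNA promoters were mostly marked in few lines. Of the 2223, 1034 (46.5%, 44.4 to 48.6) were marked in exactly 1 line, 452 (20.3%) in 2, 319 (14.3%) in 3 and 418 (18.8%, 17.2 to 20.5) in all 4. Among marked protein-coding promoters 13.4% were marked in exactly 1 line and 60.7% (59.8 to 61.6) in all 4. Among marked lncRNA promoters near a coding TSS these groups were 485 of 3040 promoters and 56.6%. Taken over the whole class, marking in exactly 1 line was about as common in each. It held for 7.68% of stand-alone lncRNA promoters, 7.75% of coding promoters and 9.16% of lncRNA promoters near a coding TSS. The classes differed in marking over several lines. Marking in all 4 lines held for 15.6% of all annotated promoters and for 3.11% of the stand-alone lncRNA promoters. Counted over loci, with members within 1 kb of each other joined, 2027 of 13010 loci were marked in at least 1 line and 337 in all 4.

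The commonest pattern was K562 alone, with 602 promoters (4.47% of members, against 3.94% of all annotated promoters). All 4 lines together came next with 418, then Molm13 with OCI-AML3 only (278, 2.07%, against 1.89% of all promoters), OCI-AML3 alone (211), Molm13 with OCI-AML3 and K562 (186), Molm13 alone (142) and the 3 AML lines without K562 (116, 0.862%, against 1.12%). HL-60 alone accounted for 79. Molm13 with OCI-AML3 and K562 made up 1.38% of members, against 5.83% of lncRNA promoters near a coding TSS. The patterns of 1 AML line lay closer to that class. OCI-AML3 alone made up 1.57% against 1.87%, Molm13 alone 1.06% against 1.17% and HL-60 alone 0.587% against 0.378%. Shares over all promoters were not computed for these patterns. The remaining combinations held between 6 and 86 promoters each. The shares of all members in the K562-only and Molm13 with OCI-AML3 patterns were close to those over all genes, while the share in the 3 AML lines without K562 was slightly lower. At q-values below 0.001 the K562-only count was 398 and the count in the 3 AML lines without K562 was 75.

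K562 stood apart from the AML lines in which stand-alone lncRNA promoters it marked. Of its 1370 marked promoters, 602 (43.9%, 41.3 to 46.6) were marked in no other line. The corresponding share was 11.6% (9.42 to 14.2) for the HL-60 list, 11.9% (10.2 to 13.9) for the Molm13 list and 15.9% (14.0 to 18.0) for the OCI-AML3 list. For protein-coding promoters these shares were 9.14% in K562 and 0.978%, 1.51% and 4.09% in the 3 AML lines. Molm13 and OCI-AML3 were the closest pair. They had 998 marked promoters in common, which is 83.8% of those of Molm13, 75.3% of those of OCI-AML3 and 65.7% of their union. HL-60, with the shortest list, had 41.3% of the union in common with Molm13 and 39.2% with OCI-AML3. K562 had 28.8% to 35.1% of the union in common with each AML line, not far below HL-60. At coding promoters K562 had 76.9% of the union in common with Molm13 and 79.1% with OCI-AML3, above the 75.6% and 72.5% of HL-60. K562 is the only line here from chronic myelogenous leukaemia and the only one with all the erythroid markers, so lineage and disease cannot be told apart.

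Absence at the promoter often meant absence from the neighbourhood as well. Of the 602 promoters marked in K562 alone, 129 (21.4%) had a region of an AML line within 5 kb. The value was 25.3% of 79 for HL-60 alone, 47.9% of 142 for Molm13 alone and 46.9% of 211 for OCI-AML3 alone. Promoters marked only in Molm13 had an OCI-AML3 region within 5 kb in 34.5% of cases, and those marked only in OCI-AML3 had a Molm13 region within 5 kb in 38.4%.

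Regions at stand-alone lncRNA promoters had a higher median fold enrichment than their list as a whole and a lower one than regions at coding promoters. The median fold enrichment over the caller's local background was 4.24 (HL-60), 4.98 (Molm13), 3.48 (OCI-AML3) and 3.41 (K562). Over all regions of the lists it was 3.60, 3.80, 2.95 and 2.85, and at protein-coding promoters 5.19, 6.34, 3.97 and 3.64. Fold enrichment was compared within a list only, and for this reason the percentile of each region in its own list is given as well. The median percentile of the regions at stand-alone lncRNA promoters was 66.3 (HL-60), 71.3 (Molm13), 68.7 (OCI-AML3) and 74.5 (K562). The regions covered the TSS itself in 70.3% to 79.0% of cases, and between 0.588% (HL-60) and 2.02% (Molm13) of marked promoters had a region that also reached a coding TSS.

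Promoters marked in more lines carried regions of higher rank. In HL-60 the median percentile was 31.0 for the 79 promoters marked in no other line, 51.0 with 1 more line, 61.8 with 2 more and 77.3 for those marked in all 4. In Molm13 the series was 31.2, 57.9, 68.8 and 86.6, in OCI-AML3 39.4, 59.0, 65.9 and 86.7, and in K562 60.4, 63.7, 76.6 and 88.3. The K562-only regions thus ranked higher in their list than the regions particular to HL-60, Molm13 or OCI-AML3 ranked in theirs. Median widths were larger for promoters marked in all 4 lines than for those marked in 1, with 626 and 1432 bp (HL-60), 843 and 2097 bp (Molm13), 996 and 2276 bp (OCI-AML3) and 1804 and 2669 bp (K562). They rose at each step in the AML lines, but in K562 the median was lower with 2 lines (1660 bp) than with 1. How many absent calls were regions just under the caller's limit was not tested.

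Base composition rose in step with the number of lines. Windows were called CpG-rich when their GC content was at least 50% and their observed over expected CpG ratio at least 0.6. This held for 1300 of the 13459 stand-alone lncRNA promoters (9.66%), against 55.3% of protein-coding promoters and 27.1% of all promoters. It held for 6.21% of promoters marked in no line, 12.8% of those marked in 1, 22.3% in 2, 32.9% in 3 and 63.2% in all 4. Median GC content was 45.3% in the unmarked set and 60.8% in the set marked in all 4 lines, next to 60.3% for protein-coding promoters. Of the 1300 CpG-rich members 46.3% (43.6 to 49.0) were marked in at least 1 line, and of the 12159 CpG-poor members 13.3% (12.7 to 13.9). The same split gave 76.6% and 34.3% among protein-coding promoters. CpG-rich stand-alone lncRNA promoters were therefore marked more often than CpG-poor coding ones, and less often than CpG-rich coding ones.

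**Figure D2:**
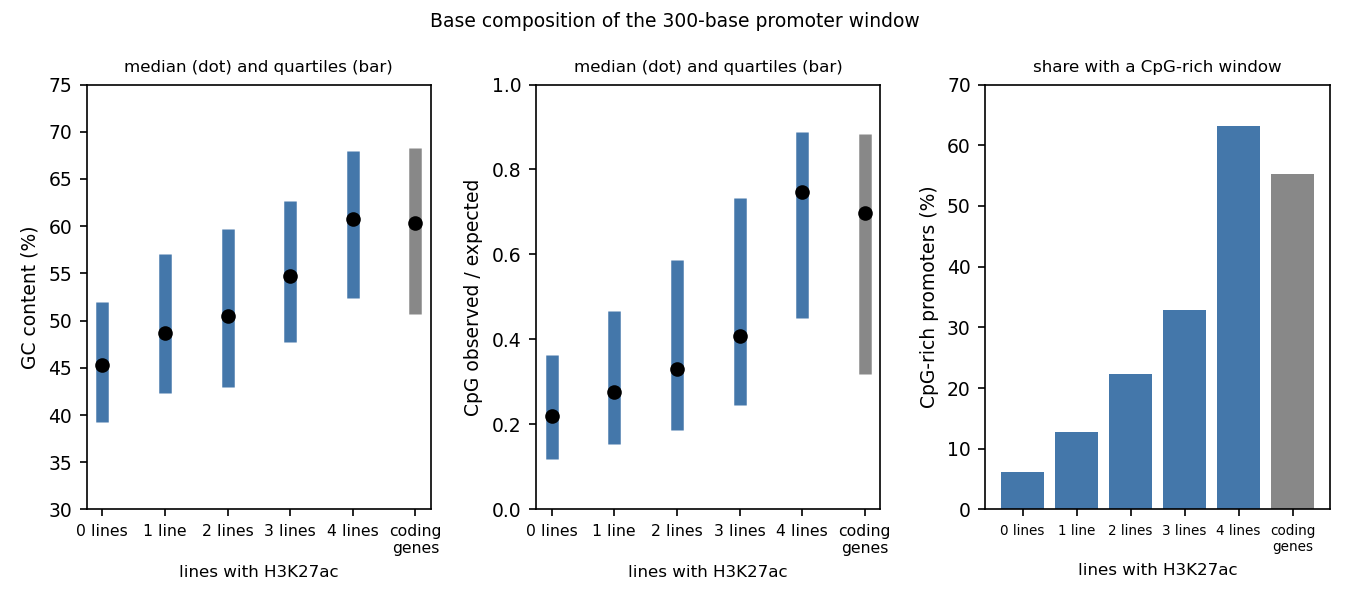
Base composition of the 300-base window for stand-alone lncRNA promoters marked in 0 to 4 lines (blue) and for protein-coding promoters (grey). The left and middle panels give the median (dot) and quartiles (bar) of GC content (%) and of the CpG observed over expected ratio, and the right panel the share of CpG-rich windows (%), which rises from 6.21% to 63.2% over the lncRNA sets.

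Short motif matches differed between the patterns. GC boxes (GGGCGG) were found in 10.4% of unmarked windows and in 56.9% of those marked in all 4 lines, against 27.5% of all gene promoters. ETS letters (CCGGAAG) were found in 2.20% and 12.9%, against 6.06%. TATAAA went the other way, with 20.0% of unmarked windows and 9.57% of those marked in all 4 lines, against 17.1%. The RUNX letters (TGTGGTT) were in 13.8% of the 116 windows marked in the 3 AML lines without K562, against 5.74% of members and 4.90% of all promoters, but in 2.53% of the 79 windows marked in HL-60 alone and 6.83% of the 278 marked in Molm13 and OCI-AML3 only. GATA letters (AGATAA) were in 4.31% of the same 116 windows, against 16.5% of members and 13.8% of all promoters. GATA letters were also less frequent than in members in windows marked in all 4 lines (8.37%), in Molm13 and OCI-AML3 only (9.71%) and at coding promoters (8.69%). In the 602 K562-only windows their share was 17.9%, near that of windows marked in OCI-AML3 alone (17.1%) or in no line (17.3%). The PU.1 letters (GAGGAAG) were in 23.7% of the 186 windows marked in Molm13, OCI-AML3 and K562, against 11.1% of members and 11.4% of all promoters. The PU.1 and ETS letters share GGAAG but cannot match at the same place, and the differences between sets were not tested.

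Hosts of snoRNAs were the most uniformly marked group of named lncRNAs. Of 33 listed hosts 21 stood alone and 12 lay near a coding TSS. Of the 21, 19 (90.5%) were marked in at least 1 line, against 16.5% of all members and 31.1% of all promoters. In all 4 lines 16 (76.2%) were marked, against 3.11% and 15.6%. Over these 16 genes the fold enrichment ran from 3.75 to 12.9 (HL-60), 4.71 to 11.5 (Molm13), 3.73 to 5.21 (OCI-AML3) and 3.19 to 5.29 (K562). Every one of these regions ranked above the median of its list, with the lowest percentile, 54.9, at SNHG7 in HL-60. At SNHG5, whose window is printed above, the fold enrichment was 6.23 (HL-60), 7.76 (Molm13), 4.56 (OCI-AML3) and 5.29 (K562), where it ranked at percentile 99.6. SNHG17 had the highest HL-60 value, 12.9, with 10.5 (Molm13), 4.97 (OCI-AML3) and 3.59 (K562) elsewhere. DANCR, known as an RNA that holds back differentiation, had 4.70, 4.71, 3.77 and 3.85 in the same order.

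The exceptions among the listed snoRNA hosts were 5 genes, of which CYTOR was listed without an SNHG symbol. CYTOR was marked in K562 alone (fold enrichment 3.69, percentile 82.6), SNHG28 in OCI-AML3 alone (2.91, percentile 47.7), and SNHG12 in OCI-AML3 (3.18) and K562 (3.77). SNHG27 and SNHG14 had no region in any line. SNHG14 is the imprinted host of the snoRNA clusters of the Prader-Willi region, used mainly in neurons. Of the 21 windows 12 were CpG-rich (57.1%, against 9.66% of members), so that the group was not uniform in composition. Among the 18 members with an SNHG symbol, 16 (88.9%) were marked in at least 1 line and 14 (77.8%) in all 4.

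RNAs of nuclear bodies and chromatin were listed as 15 genes, of which 9 stood alone. Of these 7 (77.8%) were marked in at least 1 line, against 16.5% of members and 31.1% of all promoters, and 5 (55.6%) in all 4, against 3.11% and 15.6%. NEAT1, the scaffold of paraspeckles, had fold enrichments of 10.4 (HL-60), 11.3 (Molm13), 4.85 (OCI-AML3) and 4.48 (K562), and ranked between percentile 93.3 and 98.8. MALAT1, an RNA of nuclear speckles, had 8.22, 9.07, 4.83 and 5.49. NORAD, which binds PUMILIO proteins, had 5.54, 10.7, 5.35 and 4.46. JPX, a gene of the X-inactivation centre, had 5.95, 7.17, 4.73 and 4.60. KCNQ1OT1, the imprinted antisense RNA of the KCNQ1 locus, ranked from percentile 31.2 in HL-60 through 59.5 and 76.2 to 96.9 in K562. FTX lacked a region in HL-60 and ranked at 87.7, 99.1 and 97.6 in the other lines. FIRRE was marked in OCI-AML3 (2.50) and K562 (3.29) only, and the imprinted H19 and MEG3 in none.

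The MALAT1 region shows how far a mark could spread over neighbouring starts. It was 4563 bp (HL-60), 17684 bp (Molm13), 16816 bp (OCI-AML3) and 23175 bp (K562) wide, the last at chr11:65488091-65511265. The K562 region held 6 stand-alone lncRNA starts. Among them LINC02736 counted as marked in K562 alone, and the regions of Molm13 and OCI-AML3 at MALAT1 did not reach within 500 bp of it. NEAT1 lies near by, with regions of 10149 bp (HL-60), 13646 bp (Molm13), 17109 bp (OCI-AML3) and 18706 bp (K562).

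MicroRNA hosts varied more between lines than snoRNA hosts. Of 84 listed hosts 69 stood alone. Of these 26 (37.7%, 27.2 to 49.5) were marked in at least 1 line, against 16.5% of members and 31.1% of all promoters. All 4 lines marked 9 (13.0%), against 3.11% and 15.6%. The AML lines without K562 marked 3, a pattern of 0.862% of members and 1.12% of all promoters. K562 alone marked 5, a pattern of 4.47% and 3.94%. These small counts were not tested. The 43 hosts outside the 26 had no region at the 5′ end of their gene record. CpG-rich windows made up 10 of the 26 marked hosts and 6 of the 43 unmarked hosts. The 9 hosts marked in all 4 lines were MIR223HG, MIRLET7IHG, MIR23AHG, MIR181A2HG, MIRLET7A1HG, MIR762HG, MIR17HG, MIR9-1HG and MIR3945HG.

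MIR223HG, host of the granulocyte and monocyte microRNA miR-223, was marked strongly in every line. Its fold enrichment was 9.74 (HL-60), 12.0 (Molm13), 6.20 (OCI-AML3) and 4.76 (K562), and each value ranked between percentile 98.1 and 99.3 of its list. The region was 7535 bp (HL-60) and 13781 bp (Molm13) wide, against 37105 bp (OCI-AML3) and 37507 bp (K562, chrX:65985792-66023298). It covered the mature miR-223 sequence printed above in each line. MIR23AHG, host of the miR-23a, miR-27a and miR-24 cluster, had 9.45, 15.8, 5.74 and 4.16. MIR17HG, host of the oncogenic miR-17 cluster with the AAAGUGC seed, had 4.38, 6.78, 4.96 and 3.38, and thus lower ranks, from percentile 68.7 in HL-60 to 94.3 in OCI-AML3.

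Hosts with the let-7 seed differed from each other. Let-7 microRNAs restrain growth and rise as cells differentiate. MIRLET7IHG was marked in all 4 lines, with 11.5 (HL-60), 14.6 (Molm13), 5.98 (OCI-AML3) and 4.22 (K562). MIRLET7A1HG, which carries let-7a, let-7f and let-7d, was marked in all 4 lines with 7.15, 6.26, 4.51 and 4.26. MIRLET7BHG had no region in HL-60 or K562 but lay in very broad regions in Molm13 (fold enrichment 11.9) and OCI-AML3 (6.58). MIR99AHG, MIR100HG and MIR4458HG had no region at their gene start in any line. MIR99AHG and MIR4458HG had one at another annotated transcript start, MIR99AHG in the 3 AML lines and MIR4458HG in K562.

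The MIRLET7BHG start lay in a region that it shared with other lncRNA genes. In Molm13 the region ran over 50186 bp (chr22:46034600-46084785) and in OCI-AML3 over 57502 bp (chr22:46035280-46092781). Both held 9 stand-alone lncRNA starts, among them LINC00899, PRR34-AS1, PRR34 and LINC02939. Of these, LINC02939 was marked in HL-60 too (fold enrichment 11.6, width 5032 bp) and in K562 (3.15, percentile 65.3 of its list, width 2177 bp). The region called at LINC02939 was thus much wider in Molm13 and OCI-AML3 than in HL-60 or K562. How far acetylation reached over the whole locus in HL-60 and K562 was not measured. The 9 starts are 1 observation and not 9.

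Other hosts were marked in the AML lines and not in K562. MIR181A1HG carries miR-181a and miR-181b and had a fold enrichment of 5.49 (HL-60), 5.11 (Molm13) and 5.15 (OCI-AML3), with no K562 region. Its paralogous host MIR181A2HG carries the same 5p microRNAs, with other 3p arms, and was marked in all 4 lines, with 5.44, 10.1, 7.38 and 3.97. MIR222HG, host of miR-221 and miR-222, which repress the receptor KIT in erythroid cells, was marked in the 3 AML lines at 3.25, 5.82 and 4.73 and not in K562. MIR155HG, host of the miR-155 that is active in lymphoid and myeloid activation, showed the same pattern at 3.76, 7.19 and 5.38. In HL-60 MIR222HG and MIR155HG ranked at percentile 34.3 and 55.4, well below their ranks in Molm13 (79.4 and 88.4) and OCI-AML3 (92.0 and 97.1). The hosts marked in K562 alone were MIR4713HG (3.94), MIR202HG (3.72), MIR193BHG (3.15), MIR548XHG (2.85) and MIR194-2HG (2.29).

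Of the listed blood and leukaemia RNAs, 18 stood alone. Of these 13 (72.2%) were marked in at least 1 line, against 16.5% of members and 31.1% of all promoters, and 4 (22.2%) in all 4, against 3.11% and 15.6%. The 4 were MIR223HG, MIR17HG and DLEU1 and DLEU2, the pair at the 13q14 region that is deleted in chronic lymphocytic leukaemia. DLEU2 had fold enrichments of 7.47 (HL-60), 8.76 (Molm13), 5.94 (OCI-AML3) and 4.63 (K562). DLEU1 had 5.91, 7.62, 4.36 and 4.12, in regions of 3734, 8721, 25742 and 9876 bp. UCA1, first described in bladder cancer, was marked in K562 alone, where it ranked at percentile 97.8 (fold enrichment 4.70) in a region of 13346 bp. LUCAT1 (2.94 and 2.98) and LINC00173 (2.86 and 3.53) were marked in OCI-AML3 and K562 only, a pattern held by 86 members (0.639%). The LUCAT1 regions were narrow, 373 and 436 bp, at percentiles 49.5 and 57.6. These lines carried vectors and also had the longest lists, and no cause was tested. LINC-ROR was marked in Molm13 (3.24) and OCI-AML3 (4.34), and GAS6-AS1 in HL-60 (3.22) and K562 (2.45) at low ranks.

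Of the listed blood RNAs 5 had no region at their gene start, namely NRIR, MIR4435-2HG, THRIL, LINC00511 and MIR99AHG. The 5′ end of the gene record is the most distant annotated start and need not be the one in use. MIR4435-2HG has 108 annotated transcripts and had a region at another start in all 4 lines. Over all lists 54 members had no region at the gene start, and 12 of these had one at another annotated start in at least 1 line.

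At 8q24, the gene-poor segment around MYC, 6 listed lncRNAs stood alone. PVT1, the neighbour of MYC, was marked in all 4 lines with fold enrichments of 4.26 (HL-60), 4.96 (Molm13), 3.94 (OCI-AML3) and 2.69 (K562). CCDC26, a locus of copy number gain in AML, had none in HL-60 but broad regions in Molm13 (7.84, 27103 bp), OCI-AML3 (3.84, 11608 bp) and K562 (4.39, 15181 bp). CASC19, PRNCR1, CASC8 and LINC00824 had no region at their gene start, though CASC19 had one at another annotated start in Molm13 and OCI-AML3 and LINC00824 in K562.

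**Figure D3:**
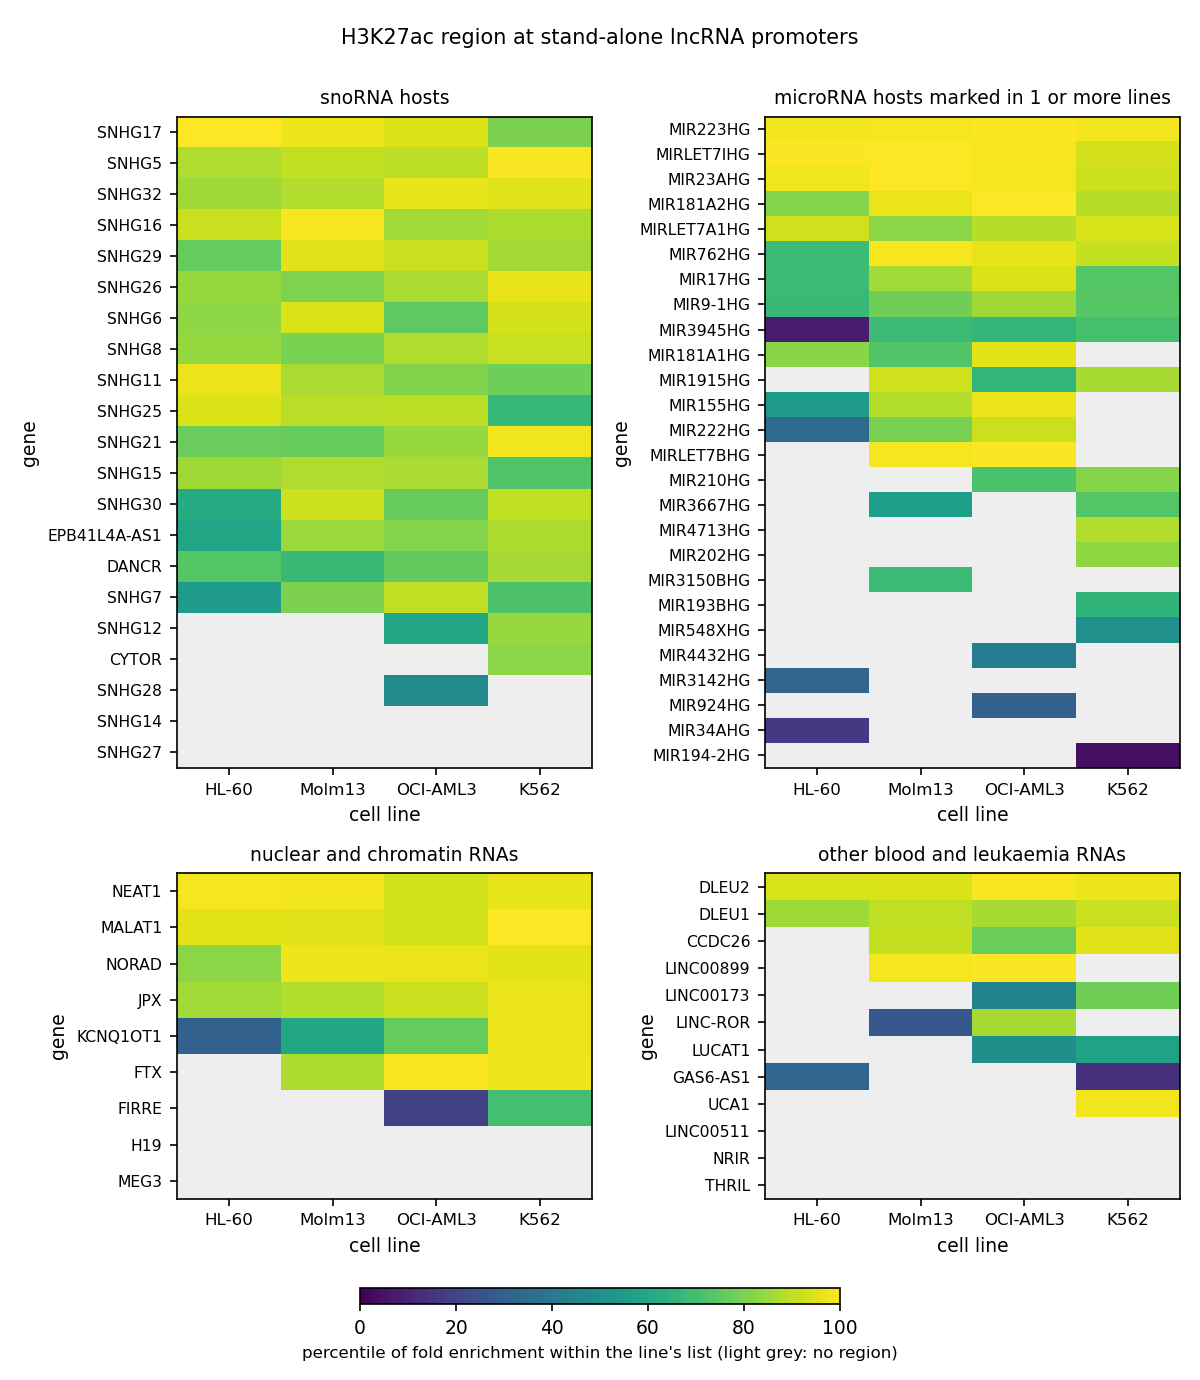
Percentile of fold enrichment within the line's own H3K27ac list (colour) at stand-alone lncRNA promoters of 4 fixed lists, 1 row per gene and 1 column per line, with light grey for no region. Rows are ordered by the number of lines marked. Most snoRNA hosts are marked in every column, while microRNA hosts and other blood RNAs are marked in part.

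Among promoters marked in all 4 lines, the 10 with the highest worst rank were mostly genes known by Ensembl identifier alone. They included MIR223HG and HCG27, a gene of the major histocompatibility region, which had 10.3 (HL-60), 13.1 (Molm13), 5.29 (OCI-AML3) and 4.49 (K562). ENSG00000290121 on chromosome 1 led the ranking, with 11.0, 13.4, 6.74 and 5.32, each at percentile 99.2 or above. Several of the 10 shared a region. ENSG00000286171 and ENSG00000286180 on chromosome 7 lay in 1 region in each line, as did ENSG00000283696 and ENSG00000288093 on chromosome 1, and HCG27 and ENSG00000272501 on chromosome 6.

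The named promoters marked in the 3 AML lines without K562 were led by LINC00563 on chromosome 13, with 5.73 (HL-60), 14.2 (Molm13) and 6.92 (OCI-AML3), the latter at percentile 99.8. LINC02910 on chromosome 20 had 10.8, 8.93 and 5.68, and LINC03081, which lies 60.1 kb from the coding start of LYST, had 5.58, 11.0 and 6.52 in regions of 9437, 17375 and 20266 bp. FAM88B had 6.42, 8.75 and 4.92 in narrow regions of 547 to 662 bp. Among the 5 highest named promoters in the Molm13 and OCI-AML3 pattern, TMEM105 was the one outside the chromosome 22 cluster, with 8.73 and 5.15.

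Promoters marked in K562 alone included regions of high rank in that list. LINC02736, in the MALAT1 region, had a fold enrichment of 5.49 at percentile 99.8. PPBPP2, at the chemokine cluster of chromosome 4, and NIHCOLE, 517 kb from the nearest coding start, both had 5.23 at percentile 99.5, and LINC01610 had 4.97. By width, BCL2L1-AS1 came first in K562, in a region of 47975 bp at a fold enrichment of 3.78. It lies antisense to BCL2L1, a survival gene of erythroid cells. LINC01993 (27406 bp) was likewise marked in K562 alone.

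In the other lines the leading regions of 1 line ranked lower. They were drawn from smaller sets of promoters, 79 (HL-60), 142 (Molm13) and 211 (OCI-AML3), against 602 in K562. Leading ranks from sets of unlike size cannot be compared directly. In HL-60 the leading genes were ZNF790-AS1 (6.77, percentile 91.0), LINC02765 (5.08, 78.3), YWHAEP7 (3.83, 57.2), LINC02367 (3.55, 48.2) and LINC02285 (3.48, 45.7). In Molm13 they were LINC01128 (11.3, 98.3), LINC02580 (8.04, 92.0), TP73-AS2 (7.22, 88.6), LINC02564 (6.81, 86.4) and LINC00237 (5.18, 73.5). LINC02580 lies 9.36 kb from the coding start of ZFP36L2 and its region was 20214 bp wide. In OCI-AML3 they were LINC01264 (5.18, 95.9), LINC01451 (4.96, 94.3), LINC02169 (4.48, 88.8), EMBP1 (4.25, 85.5) and LINC02204 (4.09, 82.6). YWHAEP7, EMBP1 and FAM88B belong to families with near-identical copies, where reads that map to several places were not kept.

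By name, the genes known only by Ensembl identifier, 9744 of the 13459, were marked in 15.1% of cases (14.4 to 15.8), and LINC genes in 17.1%. Genes with antisense symbols were marked in 19.3%. Those with 1 exon were marked more often than those with several (20.0% of 1782, interval 18.2 to 21.9, against 1867 of 11677, interval 15.3 to 16.7%). Between chromosomes the share ran from 10.5% on chromosome 4 to 22.3% on chromosome 19. None of the 279 members on chromosome 21 was marked in all 4 lines, against 3.11% of all members. Shares over all promoters of each chromosome were not computed, so whether these values are particular to lncRNA genes was not tested.

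In K562 cells with sgRNAs against LTR2B, 11 of 13459 members (0.0817%) had a dCas9 peak within 500 bp, at 10 of the 395 peaks, against 73 of 62062 gene promoters in all (0.118%). At 4 of the 11 members the peak covered the TSS itself. Of the 11, 6 had no H3K27ac region in any line and 2 had one in K562 with the empty vector, ENSG00000289878 and ENSG00000287719. The named genes were LINC01596 (dCas9 fold enrichment 3.58), LINC01410 (10.7) and RHOXF1-AS1 (8.41). LINC01410 was marked with H3K27ac in HL-60, Molm13 and OCI-AML3 but not in K562. The H3K27ac lists used here contain no sample with these sgRNAs, so any change of acetylation at these 11 promoters was not analysed here.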

How the data were processed

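H3K27ac was profiled by ChIP-seq in HL-60, Molm13, OCI-AML3 and K562 cells, with 1 list per line used here. Per the labels and the study's methods, the authors trimmed reads with Trim Galore 0.4.5, aligned them to hg38 with Bowtie2 2.3.4, kept uniquely mapped reads and called regions with MACS2 2.1.1 at q 0.05, with the broad option for H3K27ac. The control library was not given in the sources used here. For each region the authors deposited a score, its p-value and q-value as −log10, and the ratio of signal to local background (fold enrichment). Scores, folds and depths are not comparable between lists.

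Start sites came from GENCODE 44 (hg38). A promoter was marked when a region lay within 500 bp, and of several regions the one with the highest fold enrichment was kept. The percentile of that value was taken within its list. Windows of 300 bases were read from hg38. Shares carry Wilson 95% intervals. No test was made, since each group had 1 library. The scoring recovered all planted regions in simulated data and gave the same counts as bedtools 2.31.1. Scripts ran in Python 3.11.15 with SciPy 1.17.1, pandas 2.3.3, NumPy 2.4.6 and matplotlib 3.10.9.

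Named genes were members of 5 lists (microRNA hosts, snoRNA hosts, nuclear body and chromatin RNAs, 8q24 RNAs, blood and leukaemia RNAs), the 5 highest folds per line-restricted pattern with a gene symbol, the 10 highest by lowest rank in all 4 lines, and the 5 widest per line. Genes in the widest region of the MALAT1 locus and genes with dCas9 peaks were named after their values were seen. The text describes some of the genes that this rule picks, most of them with a symbol, and 1 of them is not reported here. Members and lists were chosen with earlier results of these data known. Tried as alternatives were the window, the q-value limit, list length, the stand-alone distance, the transcripts counted, and, after seeing the data, leaving out regions at a coding TSS.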

Additional observations from a re-analysis of the deposited data

How the results depend on the processing

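Stand-alone lncRNA promoters were marked less often than both comparison classes in each of the 4 lines under every alternative that scored all classes, and HL-60 had the lowest share throughout. At q-values below 0.001 the highest member share was that of OCI-AML3 and not K562, and with regions that cover the TSS the HL-60 share near a coding TSS was above that of coding genes. In all, 65 of the values moved by more than their counting interval or, for counts, by more than 1.5 times, while 61 did not. Values below are in the order HL-60, Molm13, OCI-AML3, K562. When the region had to cover the TSS, the share of members was 3.55%, 6.75%, 7.78% and 7.96%, of lncRNA promoters near a coding TSS 29.5%, 38.9%, 43.1% and 43.0%, and of coding promoters 29.0%, 41.1%, 44.8% and 44.0%. The median fold enrichment was then 4.57, 5.69, 3.64 and 3.52, the share of marked promoters that were marked in all 4 lines was 16.5% for members and 47.7% for coding genes, and 4 members had a dCas9 peak. With a window of 1000 bp the member shares were 5.76%, 10.1%, 11.1% and 11.3%, those near a coding TSS 40.1%, 48.3%, 52.1% and 51.2%, and those of coding genes 40.4%, 48.9%, 52.7% and 51.6%, with 61.8% of marked coding promoters in all 4 lines. At q-values below 0.001 the member shares were 3.17%, 6.16%, 7.73% and 7.12%, those near a coding TSS 31.6%, 40.6%, 45.5% and 43.6%, and those of coding genes 31.6%, 41.8%, 47.4% and 44.2%. The median fold enrichment was then 5.30, 6.21, 3.79 and 3.77, 398 promoters were marked in K562 alone and 75 in the 3 AML lines without K562, and 52.1% of marked coding promoters were marked in all 4 lines. With lists of equal length the shares in Molm13, OCI-AML3 and K562 were 6.94%, 7.64% and 8.20% for members, 42.5%, 45.3% and 46.1% near a coding TSS and 44.1%, 47.2% and 47.0% for coding genes, and 21.6% of marked members were marked in all 4 lines. Counting all transcripts of a gene gave member shares of 5.64%, 9.79%, 10.8% and 11.1%. Beyond 10 kb, with all transcripts of coding genes, and without regions at a coding TSS (chosen after seeing the data), every member value stayed within its limits. A stricter q-value or a region that covers the TSS leaves fewer regions to score. No paired analysis was possible because the lines compared here have 1 library each.

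Depth was unknown, and differences between lines cannot be told apart from differences in depth, vector or antibody efficiency. Uniquely mapped reads lower the signal over near-identical copies.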
